A study of Mus musculus with 4 samples.

Results

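The genes described here encode the proteasome and its regulators, in the tibialis anterior of the mouse, a shin muscle made mostly of fast fibres. They were chosen by symbol: every entry named Psma, Psmb, Psmc, Psmd, Psme or Psmg followed by a digit, without the 2 pseudogenes. The rule found 49 genes of 28989 single-gene entries, and it used no measured value. The data are TOMO-seq profiles: frozen muscle was cut into serial sections, and the RNA of each section was barcoded before sequencing, so that levels can be placed along the muscle. There is 1 group of 4 muscles, labelled only as tibialis anterior. The labels give no strain, age, sex or treatment and do not say whether the muscles came from separate animals, so p-values here measure only the spread between these samples, which may be technical. Sections kept by the authors numbered 37, 45, 46 and 43 in muscles 1 to 4. Each section held between 86190 and 1159697 transcripts, of which 46.6 to 76.3% were mitochondrially encoded.

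The proteasome is the barrel-shaped protease that degrades proteins marked with ubiquitin. Its 20S core is built of outer alpha rings, which gate the entry, and inner beta rings, which carry the catalytic sites. A 19S regulatory particle on the ends of the core binds ubiquitin chains, removes them and threads the substrate in with a ring of ATPases. Other activators can cap the core in place of the 19S particle, and dedicated chaperones assist the assembly of both. In skeletal muscle the ubiquitin-proteasome pathway breaks down myofibrillar proteins, and it is best known there for its part in muscle wasting.

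The upstream sequences of the 3 genes that differed between the ends or between ends and middle, and of a catalytic core gene as a comparison, show what these promoters look like. RefSeq windows (GRCm38.p6) were matched by symbol for 39 of the 47 genes left when Psmc3ip and Psme2b, which are no subunits of the particle, are set aside. Each line gives the 250 bases before RefSeq's start of the gene on its own strand, 5′ to 3′, and capitals mark a motif match on either strand. The windows lie at chr5:21785025-21785274 on the plus strand for Psmc2, at chr7:29180674-29180923 on the minus strand for Psmd8, at chr16:20651402-20651651 on the plus strand for Psmd2 and at chr14:54617996-54618245 on the minus strand for Psmb5. RefSeq's start lies 8 bases before that of the GENCODE annotation, used for all gene positions here, for Psmc2 and at the same base for Psmd2. For Psmd8 and Psmb5 the GENCODE gene starts 28 and 27 bases farther upstream, so those last bases of each window lie inside the GENCODE gene.
Psmc2: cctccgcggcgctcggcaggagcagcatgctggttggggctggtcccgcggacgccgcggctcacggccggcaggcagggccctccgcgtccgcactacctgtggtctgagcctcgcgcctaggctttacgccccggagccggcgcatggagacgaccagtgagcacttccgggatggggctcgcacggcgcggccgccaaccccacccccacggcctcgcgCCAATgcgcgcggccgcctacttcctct
Psmd8: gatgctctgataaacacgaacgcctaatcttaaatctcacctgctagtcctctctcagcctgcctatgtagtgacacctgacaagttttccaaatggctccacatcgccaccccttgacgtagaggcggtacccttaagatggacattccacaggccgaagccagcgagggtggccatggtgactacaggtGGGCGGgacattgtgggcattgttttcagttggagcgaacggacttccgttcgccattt
Psmd2: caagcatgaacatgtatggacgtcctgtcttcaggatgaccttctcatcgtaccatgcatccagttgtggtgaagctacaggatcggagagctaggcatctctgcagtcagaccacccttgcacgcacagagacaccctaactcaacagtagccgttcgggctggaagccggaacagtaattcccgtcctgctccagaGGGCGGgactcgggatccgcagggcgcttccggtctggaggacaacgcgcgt
Psmb5: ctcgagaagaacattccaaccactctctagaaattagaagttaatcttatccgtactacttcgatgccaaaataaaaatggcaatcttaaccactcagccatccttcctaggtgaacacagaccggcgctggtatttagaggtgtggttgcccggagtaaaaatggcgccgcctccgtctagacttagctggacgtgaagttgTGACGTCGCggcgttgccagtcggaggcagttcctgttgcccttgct
The capitals are a CCAAT box in Psmc2, a GC box (GGGCGG) in Psmd8 and Psmd2, and the core TGACNNNGC of the antioxidant response element in Psmb5, the element through which Nfe2l1 acts on proteasome genes.

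Over whole windows of 250 bases before to 50 bases after the start, GGGCGG was found in 24 of 42 windows of proteasome genes (57.1%) and in 35.7% of all 32851 windows. CCAAT was found in 14 of the 42 windows (33.3%, against 37.4% of all), and TATAAA in 4 (9.52%, against 13.6%). TGACNNNGC was found in 6 windows (14.3%, against 12.4% of all), those of Psmb5, Psmb6, Psmc6, Psmd9, Psmd12 and Psme4. The core of the interferon-stimulated response element (GAAA, any 2 bases, GAAA) was found in 5 windows (11.9%, against 3.44% of all), those of Psmb3, Psmd4, Psmd9, Psme1 and Psmg4. Both strands were searched and no motif was required to be free of another. The GC box was thus the motif found most often in the windows of proteasome genes, and these shares describe letters in windows, not binding. The windows of the background were not limited to genes expressed here. No window was found for Psma8, Psmb1, Psmb2, Psmb7, Psmc3, Psmd3, Psmd7 and Psmg2.

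Proteasome transcripts made up 0.164, 0.158, 0.151 and 0.134% of all transcripts in muscles 1 to 4. As a share of nuclear-encoded transcripts they were closer together, at 0.402, 0.405, 0.419 and 0.405%. Levels below are counts scaled to a library total of 1000000 (CPM) after TMM scaling. They count 3' ends, about 1 per transcript, so they are not divided by gene length. Of the 49 genes, 35 averaged 10 CPM or more, 9 lay between 1 and 10 CPM, and 5 were below 1 CPM. A count was present in every one of the 171 sections for 15 genes. The wide span of levels by role is visible in the plot of levels by muscle.

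**Figure D1:**
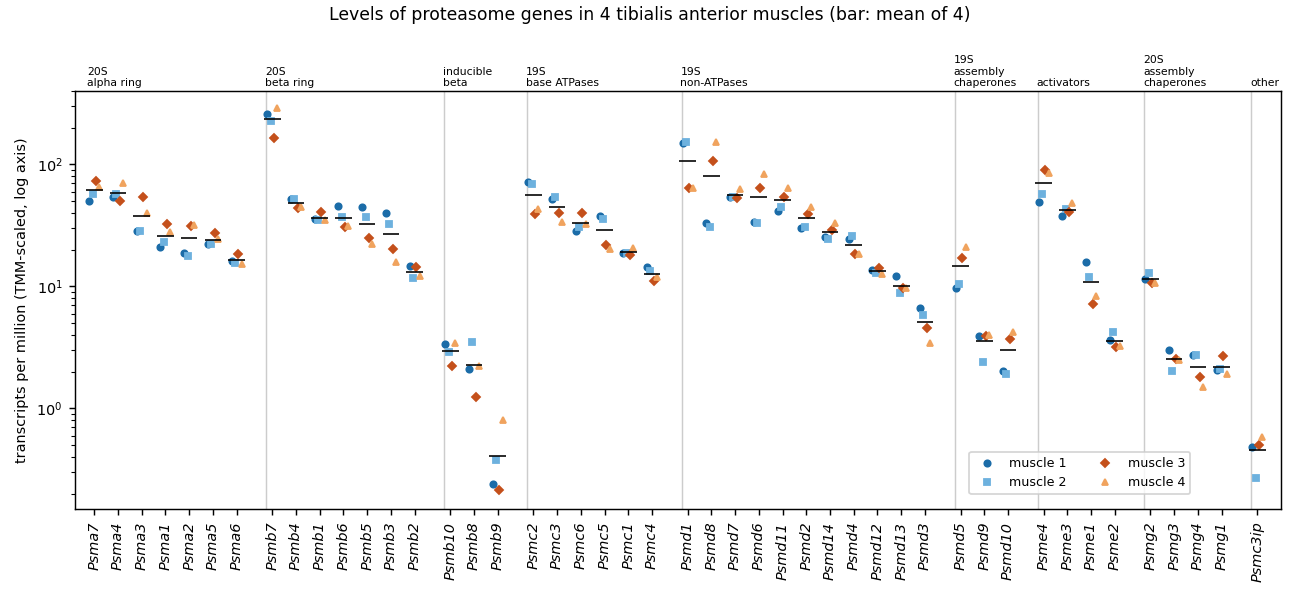
Level of each proteasome gene in each of the 4 muscles (TMM-scaled CPM, log axis), grouped by role, with a bar at the mean of 4. Psmb7 stands highest at 234 CPM on average and the inducible catalytic subunits stand lowest among the subunits shown; Psma8, Psmb11 and Psme2b, all under 0.3 CPM, are not drawn.

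The core genes and the regulatory particle genes caught by the symbol rule were transcribed to nearly equal totals. The 14 core genes (Psma1 to Psma7 and Psmb1 to Psmb7) summed to 699.9, 651.7, 628.8 and 724.7 CPM in muscles 1 to 4. The 17 genes of the 19S particle within the rule (Psmc1 to Psmc6 and 11 Psmd subunits) summed to 649.5, 644.2, 627.7 and 709.9 CPM. The 19S subunits Adrm1 and Sem1, which the rule misses, averaged 13.1 and 25.3 CPM and are not in this sum. The ratio of core to regulatory transcripts was therefore 1.08, 1.01, 1.00 and 1.02. This near equality rested on a single gene: without Psmb7 the ratio was 0.682, 0.661, 0.738 and 0.615.

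Among the alpha ring genes, Psma7 had the highest mean level, with 49.8, 57.2, 72.5 and 65.3 CPM, and Psma6 the lowest of those tested, with 16.1, 15.6, 18.5 and 15.3 CPM. The other alpha genes lay between them, and the ring's highest mean was 3.74 times its lowest. Psma8, the alpha subunit of the testis, was all but absent: 0 transcripts in muscle 1, which allows up to 0.159 CPM (3 transcripts of the total, counting error only), and 1 in each other muscle.

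The constitutive beta ring was less even. Psmb7, the subunit with trypsin-like activity, had 256.8, 225.6, 165.8 and 288.0 CPM and held 11.5 to 17.6% of all proteasome transcripts. The other 6 genes of the ring averaged from 13.3 CPM (Psmb2) to 48.2 CPM (Psmb4). Psmb7 (chr2:38588036-38644087, minus strand, GRCm38) overlaps Nek6 on the opposite strand, and the strand use of the counting is not given in the sources used here. Reads of the 2 genes may thus not be separable, although the Nek6 entry itself held only 6.06 ± 0.85 CPM (SD, n = 4).

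In the 19S base, the ATPase genes ran from Psmc2 (55.8 ± 16.9 CPM, SD, n = 4) down to Psmc4 (12.7 ± 1.48). Psmc2, with 72.01, 68.6, 39.4 and 43.4 CPM, was higher in muscles 1 and 2 than in 3 and 4. Psmc4 had 14.3, 13.4, 11.04 and 11.9 CPM. Among the non-ATPases Psmd1, a large scaffold subunit of the base, was highest, with 149.9, 152.3, 64.3 and 64.3 CPM. Psmd3, a subunit of the lid, was lowest, with 6.65, 5.85, 4.55 and 3.47 CPM. Psmd1 (chr1:86064387-86139151, plus strand) shares its strand with the overlapping entry Gm21972, which held 24.1 ± 2.02 CPM. The median over the 31 core and regulatory subunits was 32.9 CPM.

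The activators split by kind. Psme4, the large nuclear activator, had 49.5, 57.6, 90.5 and 85.8 CPM, and Psme3, which also resides in the nucleus, 37.5, 43.2, 40.8 and 48.2 CPM. The interferon-inducible pair was lower: Psme1 had 15.8, 11.9, 7.22 and 8.27 CPM and Psme2 had 3.61, 4.24, 3.17 and 3.26 CPM. No muscle's Psme1 or Psme2 reached the lowest Psme3 value. Psme2b, a copy of Psme2 whose reads could be confused with it, had 8 transcripts in all 4 muscles together.

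The assembly chaperones were led by Psmd5, a chaperone of the 19S base, with 9.79, 10.48, 16.99 and 21.2 CPM, and its mean of 14.6 CPM was above that of the ATPase Psmc4. Psmd10, another chaperone of the base, had 2.02, 1.93, 3.73 and 4.27 CPM. Among the 20S chaperones Psmg2 was highest at 11.5 ± 1.06 CPM and Psmg1 lowest at 2.19 ± 0.329 CPM (SD, n = 4). Psmc3ip, which the symbol rule catches but which encodes a factor of meiotic recombination, had 40 transcripts in all.

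The inducible catalytic subunits, which replace their constitutive partners in the immunoproteasome after interferon signals, were present at a low level. Psmb8 had 44, 65, 35 and 42 transcripts in muscles 1 to 4, against 936.3, 684.6, 702.7 and 415.6 of its partner Psmb5. Psmb9 had 5, 7, 6 and 15 transcripts, against 944.8, 689.7, 871.7 and 590.3 of Psmb6. Psmb10 had 70, 54, 63 and 64 transcripts, against 5331, 4202, 4663 and 5398 of Psmb7. Inducible transcripts were the rarer partner in every pair and muscle.

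As a share of each pair, Psmb8 made up 4.49% (95% Wilson interval 3.36 to 5.97), 8.67% (6.86 to 10.9), 4.74% (3.43 to 6.52) and 9.18% (6.86 to 12.2). Psmb8 itself stood at 2.12, 3.49, 1.24 and 2.24 CPM and Psmb5 at 45.1, 36.8, 24.99 and 22.2 CPM, so Psmb8 was highest in muscle 2, and in muscle 4 its share was high while Psmb5 was lowest. The shares in muscles 2 and 4 were above those in muscles 1 and 3 beyond these intervals, which cover counting error only. Psmb9 made up 0.526, 1.00, 0.684 and 2.48% of its pair, with an interval of 1.51 to 4.05 in muscle 4 and bounds between 0.225 and 2.06 in the others. Psmb10 made up 1.30, 1.27, 1.33 and 1.17% of its own, with all bounds between 0.919 and 1.70. The 3 inducible genes together were 1.83 ± 0.273% (SD, n = 4) of the 6 catalytic transcripts. Psmb7 weighs heavily in that sum. For the pairs of Psmb8 and Psmb9 with Psmb5 and Psmb6 alone, a choice made after seeing the level of Psmb7, the inducible share was 2.54, 4.98, 2.54 and 5.36%, with intervals of 1.93 to 3.34, 3.97 to 6.22, 1.88 to 3.43 and 4.16 to 6.88.

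By zone, the inducible share averaged 1.66 ± 0.226% at the first end, 1.89 ± 0.632, 2.07 ± 0.491 and 1.81 ± 0.305% in the next zones, and 1.70 ± 0.519% at the last end. The zones overlapped throughout. Summed leukocyte markers (Ptprc, Cd3e, Cd79a and Nkg7) stood at 1.64, 1.61, 1.99 and 2.88 CPM in muscles 1 to 4, and 8 macrophage markers at 31.6, 37.2, 29.6 and 49.1 CPM. No marker of either list was at 0 over all muscles. The summed list of 10 interferon and antigen presentation genes stood at 122.0, 163.4, 198.9 and 313.0 CPM. These sums were all highest in muscle 4, which also had the highest Psmb9 share. Its Psmb8 share was also the highest, by less than its interval over muscle 2. Its Psmb10 share was the lowest, at 1.17%, within the intervals of the others. The share of the 3 inducible genes together was highest in muscle 2 (2.21%, against 1.85% in muscle 4). The part of these genes in those shares was not tested. In bulk sections, fewer cells of a type and less RNA per cell cannot be told apart. Psmb11, the catalytic subunit of the thymus, had 0, 0, 1 and 1 transcripts, and the zeros allow up to 0.159 and 0.175 CPM.

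Of the members, Psmb8 and Psmb9 are neighbours on chromosome 17 (34197721 to 34201454 on the plus strand and 34181987 to 34187764 on the minus strand). Psmb9 overlaps Tap1, the peptide transporter of antigen presentation, on the opposite strand. The strand use of the counting is not given, so reads of Psmb9 and Tap1 may not be separable. In all, 10 members overlap a protein-coding gene on the opposite strand and 4 overlap one on their own strand. Psmb5 and Psmb11 are neighbours on chromosome 14 (54614119 to 54618022 and 54621433 to 54629556), and so are Psme1 and Psme2 (55578123 to 55581529 and 55587441 to 55591113). Neighbours could differ widely in level: Psmb5 averaged 32.3 CPM, and Psmb11 had 2 transcripts in all.

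Along the muscle, few proteasome genes passed a test of position. Kept sections were summed into 5 zones of equal length per muscle, from the first end (low barcode numbers, since the labels do not give the orientation) to the last. Of the 49 genes, 44 had enough counts to be tested among 9317 genes. Psma8, Psmb9, Psmb11, Psmc3ip and Psme2b did not. The ends, taken as the mean of the first and last zones, were compared with the middle zone. Psmc2 alone passed an adjusted p of 0.05, against 1.45% of all tested genes (0.623% higher and 0.826% lower at the ends), and 9 of the 44 (20.5%, against 11.9% of all) had an unadjusted p under 0.05. Among genes of at least 10 CPM the call was 1 of 35 members against 2.62% of 3588 genes, and the unadjusted share was 17.1% of members against 17.5% of genes.

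Psmc2 encodes an ATPase of the base and lies at chr5:21785283-21803787 on the plus strand, with no other annotated gene over it. In muscle 1 its zones from first to last end held 79.2, 71.1, 55.8, 75.7 and 79.5 CPM. In muscle 2 they held 63.9, 61.4, 63.9, 75.9 and 88.7 CPM, and in muscle 3 40.9, 38.1, 33.4, 41.1 and 44.9 CPM. In muscle 4 they held 43.1, 34.9, 41.97, 49.1 and 47.3 CPM. The last end exceeded the middle in all 4 muscles. The first end was level with the middle in muscle 2 and little above it in muscle 4 (43.1 against 41.97 CPM). In muscle 4 the fourth zone was higher than either end.

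The log2 difference of Psmc2, ends minus middle, was 0.30 ± 0.08 (SE, adjusted p = 0.0263), with 0.504, 0.235, 0.356 and 0.105 in single muscles. Within each set of section barcodes the fit gave 0.37 (muscles 1 and 2, adjusted p = 0.136) and 0.23 (muscles 3 and 4, adjusted p = 0.526). The call was lost without muscle 1 (adjusted p = 0.224), without muscle 2 (0.0585) and without muscle 3 (0.279). Among marker lists, summed fat markers stood at 5.54 ± 5.45, 1.84 ± 1.10 and 5.69 ± 4.23 CPM at the first end, in the middle and at the last end, and both fat markers tested were higher at the ends. Of 4 tendon markers tested 2 were higher at the ends. Lower at the ends were 4 of 5 Schwann cell, 2 of 6 fibro-adipogenic, 1 of 5 macrophage and 1 of 6 endothelial markers and the 1 slow fibre marker tested. Their part in the Psmc2 difference was not tested.

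The size of the differences over all 44 genes was small. The median ends-minus-middle difference was 0.06 on the log2 scale, against -0.01 over all tested genes. The median size regardless of sign was 0.09, against 0.13 over all. Among genes of at least 10 CPM, the median size was 0.07 for the 35 proteasome genes and 0.10 for all 3588 genes. The signs leaned one way, with 28 genes higher and 16 lower at the ends, against 4550 higher and 4767 lower over all. Among genes of at least 10 CPM, where all genes also leaned to the ends, 74.3% of the 35 members were higher, against 55.4% of the 3588 genes. TMM scaling raises every gene by 0.08 in this comparison relative to plain shares of the total, and on plain shares the lean turns, with 15 members higher and 29 lower (34.1% higher, against 32.9% of all genes on that scale).

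Ends exceeded the middle in 4 of 4 muscles for 8 of the 44 genes (background 8.67%): Psma3, Psmb7, Psmc2, Psmd5, Psmd8, Psmd13, Psmd14 and Psme4. Some log2 differences in single muscles were below the 0.08 that TMM scaling adds on average. Psmd8 had 0.003 in muscle 1, and Psma3 and Psme4 had 0.011 and 0.028 in muscle 4. Psmd14 and Psmb7 had 0.018 and 0.035 in muscle 2. The ends were below the middle in 4 of 4 muscles for 4 genes (background 9.89%): Psmd9, Psmd11, Psmg1 and Psmg4. Apart from Psmc2 none of these passed the adjusted test. The chaperone genes Psmg4 and Psmg1, at about 2 CPM, had the lowest fitted values, -0.72 ± 0.28 and -0.71 ± 0.29 (SE, adjusted p = 0.205 and 0.272). Between the ends, the first end was below the last in 4 of 4 muscles for 7 genes (background 9.86%): Psma3, Psmb2, Psmc2, Psmd2, Psmd7, Psmd8 and Psmg1. Some of these were nearly level in single muscles. Psmc2 and Psmd8 had -0.007 and -0.027 in muscle 1, Psmg1 -0.010 in muscle 3 and Psmd7 -0.016 in muscle 4. Psmb10 and Psme3 were higher at the first end in 4 of 4 (background 9.56%).

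**Figure D2:**
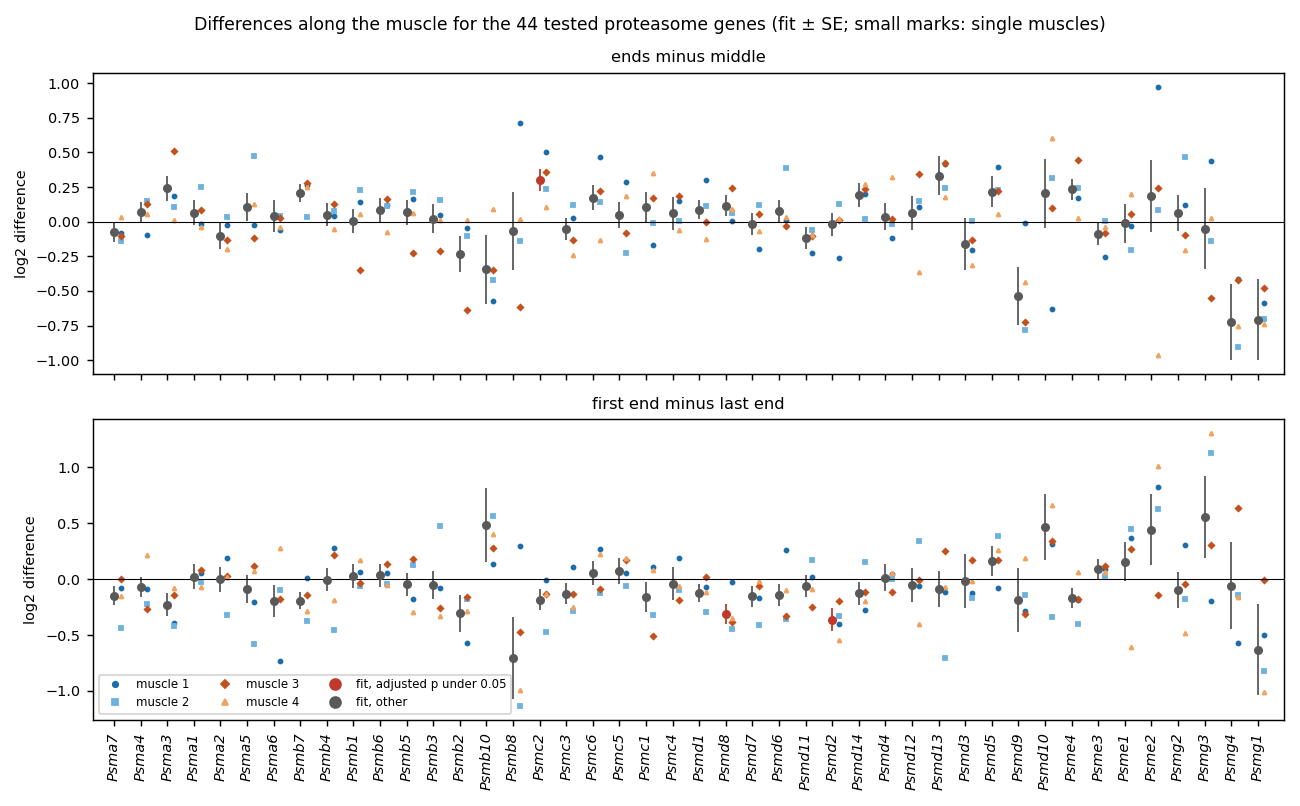
Log2 differences of the 44 tested genes (fit with SE) for ends minus middle and for first end minus last end, with single muscles as small marks. Red points passed an adjusted p of 0.05: Psmc2 above, and Psmd8 and Psmd2 below; the widest error bars belong to low genes such as Psmg1, Psmg4 and Psmb8.

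Between the ends, Psmd8 and Psmd2 were lower at the first end than at the last. They were 2 of 44 tested (background 3.18% of all tested genes, with 1.14% lower and 2.04% higher at the first end), and 5 of the 44 (11.4%, against 13.5% of all) had an unadjusted p under 0.05. Among genes of at least 10 CPM the calls were 2 of 35 members against 6.66% of 3588 genes, and the unadjusted share was 14.3% against 20.7%. Psmd8 is a lid subunit (chr7:29174188-29180701, minus strand) and Psmd2 a large base subunit that binds ubiquitin-like domains (chr16:20651652-20663414, plus strand). Neither is overlapped by another annotated gene.

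Psmd8 held 31.9 CPM in the first and 32.5 CPM in the last zone of muscle 1, 29.1 and 39.9 CPM in muscle 2, 105.6 and 137.5 CPM in muscle 3, and 140.0 and 177.8 CPM in muscle 4. The ends of muscle 1 were level, and the last end was higher in each of the others. The log2 difference, first minus last, was -0.31 ± 0.09 (SE, adjusted p = 0.0332), with -0.03, -0.45, -0.38 and -0.34 in single muscles. Within sets of barcodes it was -0.20 (muscles 1 and 2, adjusted p = 0.722) and -0.37 (muscles 3 and 4, adjusted p = 0.0691).

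Psmd2 held 25.3 and 33.5 CPM in the first and last zones of muscle 1, 28.7 and 36.2 CPM in muscle 2, 38.3 and 43.8 CPM in muscle 3, and 36.3 and 53.1 CPM in muscle 4. The last end was higher in all 4. The log2 difference was -0.36 ± 0.10 (SE, adjusted p = 0.0310), and within sets of barcodes -0.36 (adjusted p = 0.364) and -0.37 (adjusted p = 0.270). Leaving out any 1 muscle ended the call of Psmd2 (adjusted p from 0.0559 to 0.272). Psmd8 lost its call without muscle 2, 3 or 4 (0.140, 0.261 and 0.195) and kept it without muscle 1 (0.0178).

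Markers of other cells also differed between the ends. All 5 erythrocyte genes passed the test with higher values at the first end, their sum falling from 3046 ± 1258 CPM in the first zone to 968.8 ± 441.3 CPM in the last. Of 4 tendon markers tested, 3 were lower at the first end, where the sum of the list was 15.96 ± 5.203 CPM against 71.7 ± 40.3 CPM at the last end. Their part in the differences of Psmd8 and Psmd2 was not tested. Over all 44 genes the median difference was -0.07 (14 higher and 30 lower at the first end), against 0.00 over all genes tested, and TMM scaling raises every gene by 0.13 here relative to plain shares, where 6 members were higher and 38 lower (13.6% higher, against 28.8% of all genes). The median on plain shares was -0.20 for the members and -0.14 over all genes. On plain shares Psmd8 stood at -0.45 and Psmd2 at -0.50.

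A test for any difference among the 5 zones called Psmd8 (adjusted p = 1.4e-04), Psmb7 (adjusted p = 0.00125) and Psmc2 (adjusted p = 0.0110) of the 44, against 3.98% of all genes. Psmb7 held 290.0, 212.0, 240.5, 256.0 and 288.8 CPM from first to last zone in muscle 1 and 207.2, 204.3, 230.0, 236.3 and 267.8 CPM in muscle 2. It held 161.9, 142.9, 140.3, 204.3 and 179.0 CPM in muscle 3 and 281.2, 267.2, 259.9, 311.4 and 341.9 CPM in muscle 4. In every muscle the second zone was below the fourth and the fifth. These courses are shown in the plot of zone levels.

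**Figure D3:**
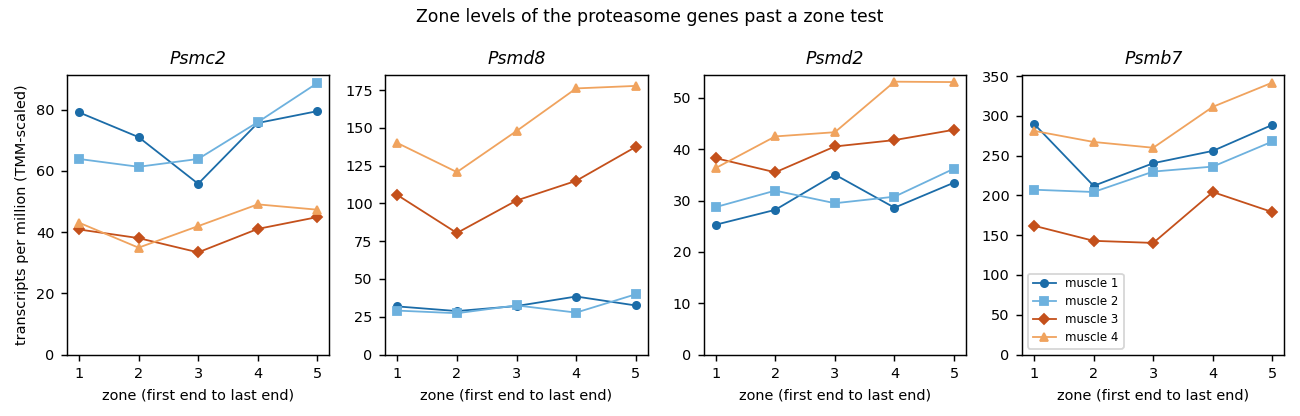
Level of Psmc2, Psmd8, Psmd2 and Psmb7 in the 5 zones from first to last end (TMM-scaled CPM), 1 line per muscle. The lines of Psmd8 fall into separate ranges, 27.3 to 39.9 CPM in muscles 1 and 2 and 80.5 to 177.8 CPM in muscles 3 and 4, and in muscles 3 and 4 they are lowest in zone 2 and highest in zone 5.

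A spline of position fitted over single sections, 1 muscle at a time, gave few calls. Its p-values measure the scatter between sections of that muscle, not between muscles. None of 44 genes passed in muscle 1 (lowest adjusted p = 0.0808, Psmb7), where 1.22% of all genes did. Psmb3, a beta ring subunit, passed in muscle 2 (adjusted p = 0.00724, background 3.06%), with 35.2, 37.9, 26.6, 37.8 and 25.2 CPM over the zones. Psmd8 and Psmb7 passed in muscle 3 (adjusted p = 2.3e-04 and 0.0195, background 3.44%). Psmd8 passed again in muscle 4 (adjusted p = 0.00486, 1 of 45 genes, background 1.39%), so that it alone passed in more than 1 muscle.

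Summed by role, the classes differed little along the muscle, and the sums have no test. For ends minus middle the mean log2 difference was 0.12 ± 0.06 (SD, n = 4) for the constitutive beta ring and 0.12 ± 0.11 for the ATPases, positive in all 4 muscles for both. The non-ATPases gave 0.07 ± 0.04 and the alpha ring 0.04 ± 0.06. For first minus last the non-ATPases gave -0.18 ± 0.07, with -0.08, -0.23, -0.19 and -0.20 in single muscles, the alpha ring -0.13 ± 0.15, the beta ring -0.12 ± 0.12 and the ATPases -0.08 ± 0.16. The 19S chaperones gave 0.15 ± 0.18 for first minus last, positive in 3 of 4 muscles, and 0.09 ± 0.06 for ends minus middle, and the activators gave -0.04 ± 0.09 and 0.10 ± 0.12. On plain shares of the total or of nuclear-encoded counts the ends-minus-middle means of the non-ATPases and of the alpha ring turn slightly negative (-0.01 and -0.04 on both scales). Sums of the inducible subunits (-0.13 ± 0.26 and -0.14 ± 0.43) and of the 20S chaperones (-0.13 ± 0.21 and -0.05 ± 0.17) varied in sign between muscles. The non-ATPase sum includes Psmd8 and Psmd2, and the ATPase sum includes Psmc2 (0.30 for ends minus middle on its own). Psmb7 held 234 of the beta ring's 428 CPM on average and gave 0.21 for ends minus middle. The other genes of that ring ran from -0.23 (Psmb2) to 0.08 (Psmb6).

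The core and the regulatory particle were compared from section to section. Over the sections of a muscle, Pearson's r between the summed CPM of the 14 core and the 17 regulatory genes was 0.48 (37 sections), 0.72 (45), 0.48 (46) and 0.60 (43). On shares of nuclear-encoded counts it was 0.30, 0.67, 0.54 and 0.53. Sections of a muscle share library, barcode set and a common depth range, and the summed level of both rose with depth (r with log2 of the section's total 0.48, 0.53, 0.36 and 0.64). In the deeper sections alone (total at or above the muscle's median of 489378, 322070, 604370 and 531376 transcripts) r was 0.37, 0.62, 0.47 and 0.43. The part of depth in the relation was not tested further.

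The summed level of these 31 genes ranged from 763.0 to 1682 CPM over the sections of muscle 1, from 746.9 to 1621 in muscle 2, from 1060 to 1509 in muscle 3 and from 853.1 to 1792 in muscle 4. Its coefficient of variation ran from 8.81% in muscle 3 to 14.2% in muscle 4, where counting alone would give 4.29 and 4.45%. The section with the lowest sum was shallow in muscles 1, 2 and 4, with 135788, 89850 and 111794 transcripts. In the deeper sections the coefficient was 8.64, 9.16, 8.63 and 10.1%.

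**Figure D4:**
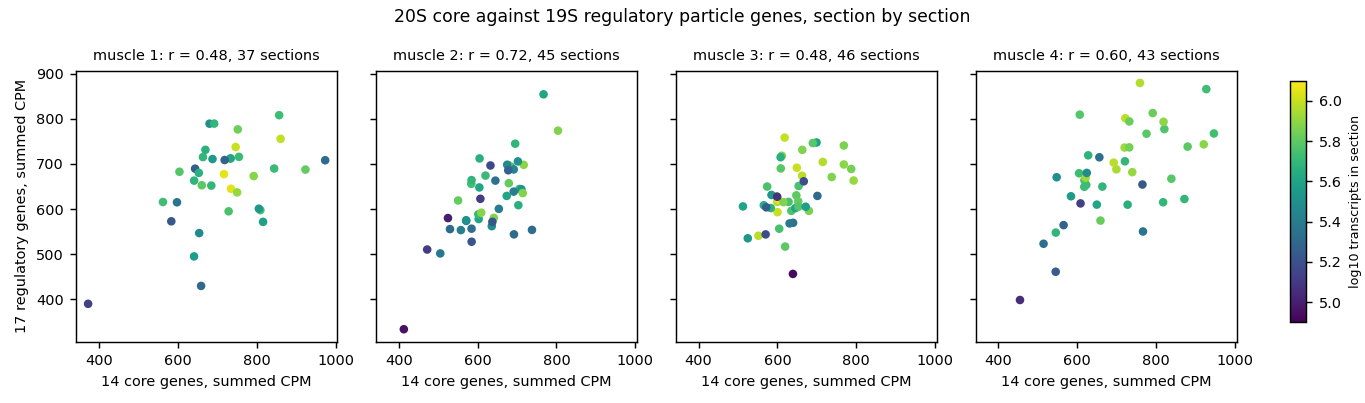
Summed level of 14 core genes (horizontal) against 17 regulatory particle genes (vertical) in each kept section of each muscle, coloured by the section's total. Pearson's r lies between 0.48 and 0.72, and the points lowest on both axes in muscles 1, 2 and 4 are dark, shallow sections.

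Levels differed more between muscles 3 and 4 and muscles 1 and 2 than along the muscle. Per the deposited barcode list, muscles 1 and 2 carried one set of section barcodes and muscles 3 and 4 another. A comparison of muscles 3 and 4 with 1 and 2, added after seeing the levels, called 14 of 45 proteasome genes (31.1%), against 26.7% of 13240 genes, so the share was near the background. The median size of the difference was 0.40 on the log2 scale for proteasome genes and 0.44 for all 13240 genes. Along the muscle it had been 0.09 and 0.13 for ends minus middle, with all genes there being the 9317 of the zone fit. For first minus last it was 0.13 and 0.17. Barcode set and muscle cannot be told apart with 2 muscles a set.

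Psmd8 differed most. Its 33.01, 30.7, 105.8 and 152.2 CPM gave a log2 difference of 2.06 ± 0.21 (SE, adjusted p = 2.1e-04), and 4.88% of all genes were called with a difference over 2. Psmd6, another lid subunit, was higher by 1.18 ± 0.18 (34.02, 33.1, 64.5 and 82.8 CPM) and Psmd10 by 1.05 ± 0.23. Psmd1 differed by -1.19 ± 0.16, with 149.9 and 152.3 CPM in muscles 1 and 2 and 64.3 CPM in each of muscles 3 and 4. These were the members called with a difference over 1, 4 of 45 tested, against 15.5% of all genes.

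The other calls were spread over the roles. Psmd5, Psma2, Psma3, Psme4 and Psmd2 were higher in muscles 3 and 4 (log2 differences 0.96, 0.84, 0.78, 0.76 and 0.51). Psmb3, Psme1, Psmc5, Psmb5 and Psmc2 were lower (-0.94, -0.79, -0.75, -0.75 and -0.72). Over all genes the calls were 1728 higher and 1803 lower in muscles 3 and 4, and 8 and 6 among the proteasome genes. The plot of the sets against each other shows these genes off the diagonal.

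**Figure D5:**
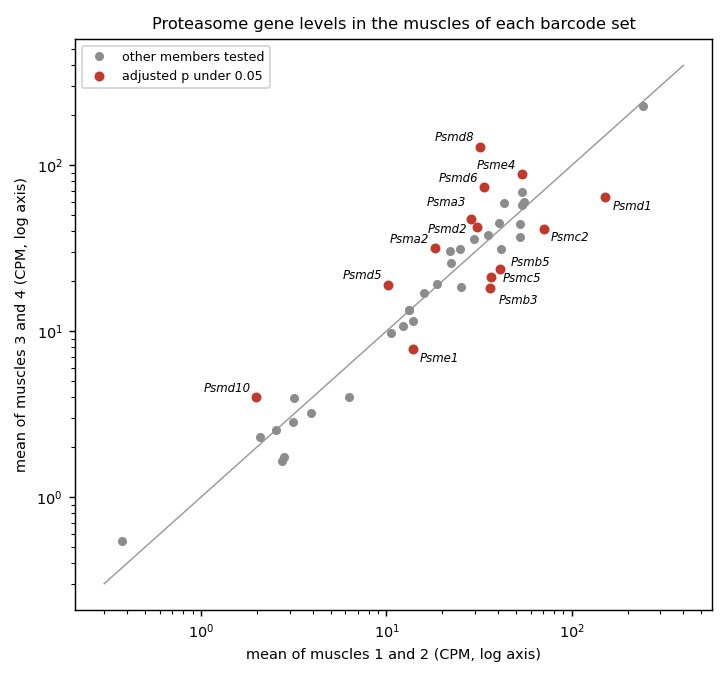
Mean level of each tested proteasome gene in muscles 1 and 2 (horizontal) against muscles 3 and 4 (vertical), in TMM-scaled CPM on log axes, with the diagonal of equal levels. Psmd8 lies farthest above the diagonal and Psmd1 farthest below it among the 14 genes in red, which passed an adjusted p of 0.05.

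Genes that work with the proteasome were tested in the same way. Of 16 tested factors outside the symbol rule, among them the ubiquitin receptor Adrm1 (13.1 ± 3.66 CPM, SD, n = 4), the core maturation factor Pomp (37.6 ± 3.46 CPM) and the deubiquitinase Usp14 (54.2 ± 4.22 CPM), none passed for ends against middle or first against last end. At an unadjusted p under 0.05 the counts were 0 and 1. Of 9 regulators of proteasome genes, 1 passed (unadjusted counts 2 for ends against middle and 3 for first against last end): Ddi2, the protease that releases Nfe2l1, was lower at the first end (-0.52 ± 0.16, SE, adjusted p = 0.0493), with -0.41, -1.27, -0.32 and -0.23 in single muscles. Nfe2l1 itself, the main activator of proteasome genes, stood at 37.8 ± 7.42 CPM with a first-minus-last difference of 0.16 (adjusted p = 0.564).

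Of 21 ubiquitin and conjugation genes tested, 1 passed (unadjusted counts 4 and 3): Nedd4, a ubiquitin ligase, was lower at the first end (-0.27 ± 0.07, SE, adjusted p = 0.0245). In single muscles it gave -0.20, -0.04, -0.23 and -0.59, so the ends of muscle 2 were nearly level. The muscle ligases Trim63 (113.4 ± 27.8 CPM) and Fbxo32 (41.7 ± 4.07 CPM) gave differences of -0.01 and 0.14 for ends minus middle and -0.15 and -0.14 for first minus last, and neither passed. None of 8 genes of the p97 segregase, which extracts ubiquitinated proteins, passed in either comparison (unadjusted counts 2 and 0), nor did 6 interferon and antigen presentation genes (0 and 2). Over the 5 lists, 0 of 60 genes passed for ends against middle (background 1.45%) and 2 of 60 for first against last end (background 3.18%).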

How the data were processed

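RNA of single cryosections of 4 tibialis anterior muscles was extracted with TRIzol and primed by CEL-Seq2 with UMIs of 6 bases and section barcodes of 8 bases, per the labels' protocols. The authors deposited estimated counts per gene and section, and the values are whole UMI counts corrected for repeated draws out of 4096 UMIs (within 0.001). The submitters' processing notes name STAR 2.7.7a and GRCm38. Which counting program made the deposited counts, and whether it used strand, is not given in the sources used here. From the filtered signal table that the authors also deposited per muscle, only the choice of kept sections was taken. Entries naming several genes were left out; those naming a proteasome gene held 0.108 to 0.521% of the proteasome transcripts.

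Sections were summed into 5 zones of equal length, giving 20 sums of 1989683 to 6604613 transcripts, rounded to whole numbers. edgeR 4.0.16 (R 4.3.3) fitted 9317 genes with TMM scaling, filterByExpr and the muscle as a block, by its quasi-likelihood test with Benjamini-Hochberg adjustment over all genes. Within each muscle, a natural spline of position (4 degrees of freedom) was fitted to single sections, for genes detected in 25% of them or more. Muscles were blocked because zones of 1 muscle share its library and barcodes. The comparison of muscle sums between barcode sets used the same test.

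Simulated data for the zone fit, with 8987 genes tested, had changes in the first zone alone and no differences between muscles. For first minus last end, 6 of 47 changes of 0.25 log2 units, 23 of 49 of 0.5, 33 of 49 of 1 and 48 of 49 of 2 were recovered, with 8 false calls. Recovery for ends minus middle was not scored. Named genes were members past the threshold, the highest and lowest member of each role class, the catalytic pairs, every untested member, and called genes of related lists. The members and lists were chosen with earlier results of these data known. Gene positions and overlaps came from GENCODE M21, and promoter windows from RefSeq. Alternatives were DESeq2 1.42.0, RLE scaling, no filter, leaving out each muscle, no block, 3 zones, tips left out, equal depth, mitochondrial genes left out, limma 3.58.1 (pseudocount 2), each barcode set alone and the UMI correction undone.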

Additional observations from a re-analysis of the deposited data

Results flagged for a closer look

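In 3 of 77 sets of 4 muscle values, 1 muscle lay apart from the other 3 by Dixon's test at its 95% critical value, and chance gives about 1 in 20. Psmb1 stood at 41.03 CPM in muscle 3, where the other muscles lay between 34.9 and 35.4 CPM. Psmd7 stood at 62.9 CPM in muscle 4, against 52.9 to 54.4 CPM in the others. Psmd9 stood at 2.42 CPM in muscle 2, against 3.90 to 4.00 CPM in the others. The cause of each was not tested.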

How the results depend on the processing

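Leaving out 1 muscle at a time gave 0 to 2 members past the threshold for ends against middle, 0 to 1 for first against last end and 1 to 4 for any difference among zones. With no replicate block the counts were 0, 0 and 0, with adjusted p = 1.00 for each named difference; the pairing of zones comes from their shared muscle. With no filter they were 0 for both contrasts. With 3 zones ends against middle gave 0, and first against last end called Psmb7 and Psmd8. Thinned to the shallowest sum they were 2 (Psmc2 and Psmd9) and 1 (Psmd8). Equal section weights in limma gave 0 for first against last end and 1 for any difference, and called Psmd11 in place of Psmc2 for ends against middle. With the tips left out, first against last end gave 1. Muscles 1 and 2 alone gave 0, 0 and 0, and muscles 3 and 4 alone 0 for both contrasts. DESeq2, RLE scaling, mitochondrial genes left out and the UMI correction undone gave the same counts as reported. Over 16 alternatives Psmc2 remained past the threshold in 7, Psmd8 in 8 and Psmd2 in 4, and no sign reversed.

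Without TMM, shares of all counts moved ends minus middle to -0.0401 for the alpha ring, 0.0471 for the beta ring, -0.00973 for the non-ATPases and 0.00796 for the 19S chaperones, and shares of nuclear counts to -0.0382, 0.0490, -0.00785 and 0.00984. First minus last moved to -0.25 for the beta ring, -0.31 for the non-ATPases and -0.17 for the activators on shares of all counts. For the alpha ring it was -0.26 on shares of all counts and -0.10 on shares of nuclear counts, against -0.13 as reported. These moves follow from the scaling itself. The mean log2 ratio of inducible to constitutive transcripts, reported at -5.76, was -4.73 without the pair Psmb10 and Psmb7, and -3.60 with Psmb7 alone left out, which keeps Psmb10 without its partner. On shares of nuclear counts r between core and regulatory genes was 0.30 in muscle 1, and in deeper sections alone 0.43 in muscle 4. The cause of the other changes was not tested. Counts limit the low genes: 14 members averaged under 10 CPM.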
